A study of Mus musculus with 8 samples.

Results

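The 37 genes described here belong to the amino acid response that is run by the transcription factor ATF4, together with enzymes that charge transfer RNA. They were taken by gene symbol from a count table of 25239 symbols, and 37 of 37 were found there and passed the filter on low counts. The table compares cells described as primary osteoblasts from mouse calvaria (skull bone) in 8 libraries of polyadenylated RNA. The 4 control libraries are labelled WT and come from littermates. The 4 others are labelled KO(OSX-SphK2), a knockout of Sphk2 (sphingosine kinase 2) that takes its name from Osx (osterix, gene Sp7), a transcription factor of the osteoblast lineage. Each group is numbered 1 to 4. Age, sex, culture time and the number of animals behind a library are not given in the labels. A p-value here therefore speaks only of the spread among these libraries, part of which may be technical.

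When amino acids run short or misfolded protein builds up in the endoplasmic reticulum, kinases phosphorylate the initiation factor eIF2alpha. Most translation then slows, while the Atf4 message is translated more, so the Atf4 transcript count is not a measure of ATF4 protein. ATF4 pairs with C/EBP proteins on short DNA elements, called C/EBP-ATF response elements, near genes for amino acid synthesis, amino acid import and aminoacyl-tRNA synthesis. In osteoblasts ATF4 is known for the amino acid supply that collagen production needs.

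The core of that element, TGATGNAA on either strand, was looked for in promoter windows that run from 250 bases before to 50 bases after each start site, as RefSeq gives them on GRCm38.p6. Of the 37 genes 31 had a window, and 11 of these (35.5%) held the core, against 4.51% of the 27025 genes in the same table. The 37 genes were chosen as genes of this response, so the higher share is not an independent result. Of the matches, 10 are shown because they place the shared element in genes of every role below except the mitochondrial folate enzymes and tRNA export. Each stretch is written 5′ to 3′ on the strand that reads TGATGNAA, with the core in capitals.
Asns: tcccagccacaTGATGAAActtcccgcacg
Pycr1: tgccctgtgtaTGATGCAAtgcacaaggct
Chac1: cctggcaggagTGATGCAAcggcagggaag
Nupr1: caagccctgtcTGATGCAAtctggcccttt
Trib3: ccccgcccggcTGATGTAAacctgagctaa
Slc1a4: caggctggagaTGATGCAAcgcaggaggca
Gars: cgcccggtgcaTGATGAAAtagcgcagcca
Iars: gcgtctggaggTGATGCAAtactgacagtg
Tars: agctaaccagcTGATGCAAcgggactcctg
Yars: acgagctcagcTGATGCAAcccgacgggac

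Positions of the core are counted from the RefSeq start site as +1, and the annotation is that of GENCODE M21 on GRCm38. The core lay upstream of the annotated gene in Pycr1 (chr11:120643833-120643862, minus strand, core at −103 to −96), Chac1 (chr2:119351038-119351067, minus strand, −193 to −186), Gars (chr6:55037960-55037989, minus strand, −30 to −23) and Tars (chr15:11399655-11399684, plus strand, −15 to −8). The Trib3 core (stretch chr2:152344028-152344057, plus strand, core at 15 to 22) lay after the RefSeq start but before the GENCODE start of the gene. In untranslated exon sequence of at least 1 GENCODE transcript lay the cores of Asns (chr6:7693214-7693243, minus strand, −23 to −16), Nupr1 (chr7:126625562-126625591, plus strand, −110 to −103) and Iars (chr13:49682126-49682155, minus strand, 8 to 15). The Slc1a4 core (stretch chr11:20332699-20332728, plus strand, core at −4 to 4) straddled the GENCODE start of the gene. The Yars stretch (chr4:129189895-129189924, plus strand, core at 4 to 11) touched sequence that is coding in some GENCODE transcript. In 10 of the 11 genes the base after a core was C or T. A match is a string of letters and not a measured binding site.

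The libraries hold 14347495 to 19065421 counts. Levels are given as CPM, counts scaled to the TMM-adjusted library size. Sphk2 itself ranged from 64.2 to 134 CPM among the controls and from 69.7 to 131 CPM among the knockout-labelled libraries, with a log2 fold change of −0.05 and an SE of 0.30, so its count does not check the labels. The libraries numbered 4 stood apart in both groups. Osteoclast markers, 10 genes, summed to 10220 CPM in control 4 and 6748 CPM in knockout-labelled 4 against 172 to 278 CPM elsewhere, and Acp5, an acid phosphatase of osteoclasts, reached 3446 and 1699 CPM there. In all libraries the 15 macrophage and monocyte markers (41420 to 65260 CPM) summed to more than the 14 osteoblast markers (4162 to 16910 CPM). Late osteoblast genes set knockout-labelled 1 apart: Bglap (osteocalcin) stood at 42.3 CPM there against at most 0.582 CPM in every other library, and Ibsp (bone sialoprotein) at 1082 against at most 49.2 CPM. Neutrophil markers, 10 genes, stayed at or under 4.08 CPM in sum. In such bulk RNA, fewer cells of a type and less RNA per cell cannot be told apart.

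Per kilobase of exon, the genes had median levels over the 8 libraries of 0.611 to 70.3 CPM per kb. Slc3a2, the heavy chain shared by several amino acid exchangers, was highest at 70.3, with a range of 60.6 to 84.6. Nars, which charges tRNA with asparagine, followed at 59.7 (47.2 to 65.4) and Atf4 at 42.2 (38.1 to 60.6), and these ranges overlap between neighbours. At the low end stood Psph at 1.62, Chac1 at 0.943 and Trib3 at 0.611 CPM per kb. Trib3, a pseudokinase induced late in the response, and Chac1, which degrades glutathione, had only 7 to 116 and 8 to 63 counts per library. The 12 synthetases had medians of 5.5 to 59.7 CPM per kb, and the 6 enzymes of amino acid synthesis 1.62 to 8.95.

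**Figure D1:**
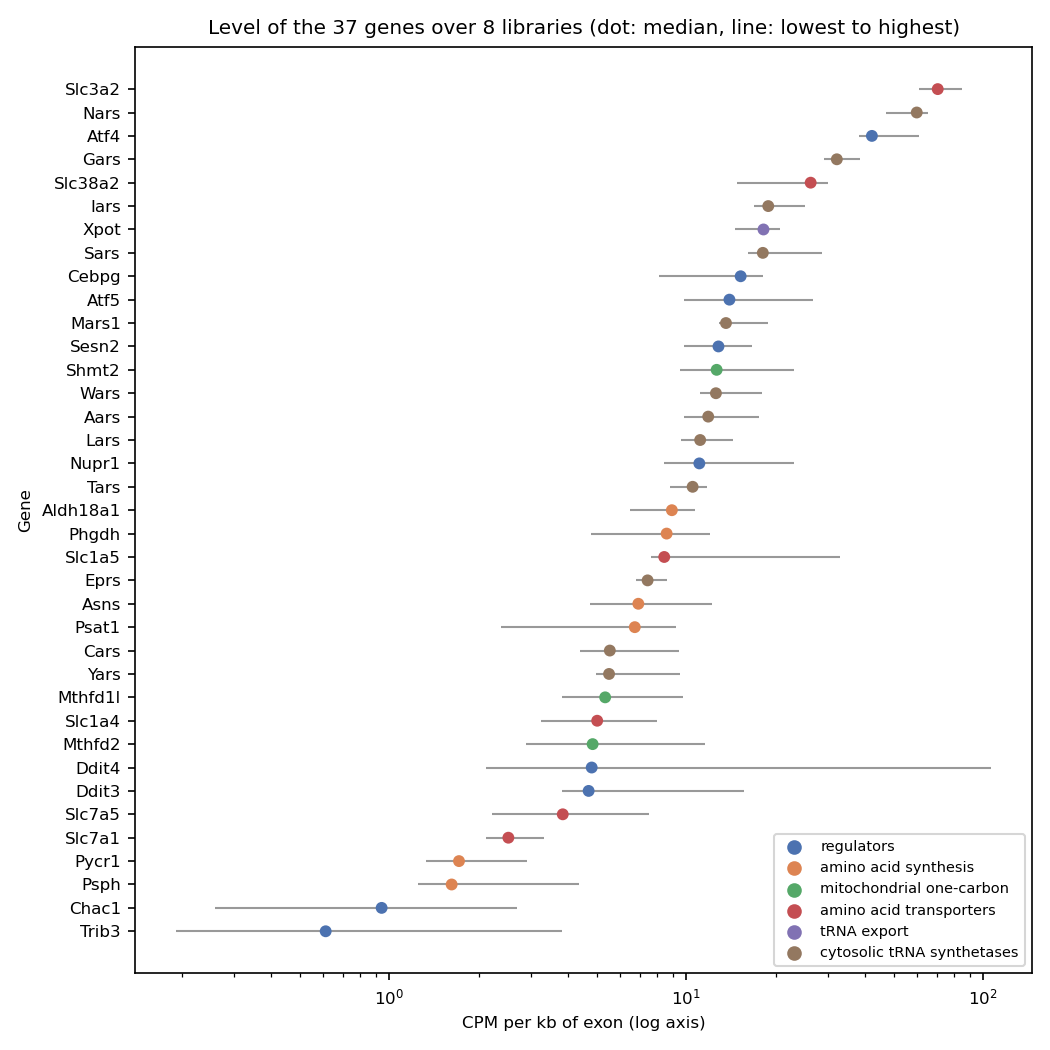
Level of each of the 37 genes in CPM per kb of exon on a log axis, with the median over 8 libraries as a dot coloured by role and the lowest and highest library as the ends of a line. Slc3a2, Nars and Atf4 lead, Trib3 and Chac1 are lowest, and Ddit4 has the widest line, from 2.11 to 106.

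With all 8 libraries and no pairing, none of the 37 genes passed the edgeR test between genotypes at an adjusted p under 0.05, and 0 had an unadjusted p under 0.05. Over all 12837 genes tested 0% were called higher and 0% lower, with 631 at an unadjusted p under 0.05. DESeq2 called 127 genes higher and 49 lower, none of them among the 37, of which 1 had an unadjusted p under 0.05. The log2 fold change was above 0 for 26 of the 37 genes, and for 5993 of the 12837 genes tested. The median of the 37 was 0.06 against −0.02 over all genes tested. The median SE was 0.28, so differences of this size were not detectable here. The members' median was −0.05 without knockout-labelled 4 and 0.26 without control 4.

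Libraries of the same number were treated as pairs on the basis of their correlation, since no label says what a number marks. Within pairs, 33, 32 and 31 of the 37 genes were higher in the knockout-labelled library in pairs 1, 2 and 3, with medians of 0.23, 0.23 and 0.15 on the log2 scale. In pair 4, 28 of 37 were lower and the median was −0.17. The median over all genes tested lay between −0.01 and 0.01 in each pair. Higher in each of pairs 1 to 3 were 27 of the 37, where 27.4% of all genes tested were, and 20 of these were lower in pair 4, where 11.9% of all genes tested showed that order. In 4 of 4 pairs 7 genes were higher, where 15.4% of all genes were, so this count lay near that background. They were Atf5, Cebpg, Ddit4, Phgdh, Mthfd1l, Slc7a5 and Lars. Lower in 4 of 4 pairs were 0 genes, where 13.4% of all genes were. Whether pair 4 differs from the other pairs was not tested.

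**Figure D2:**
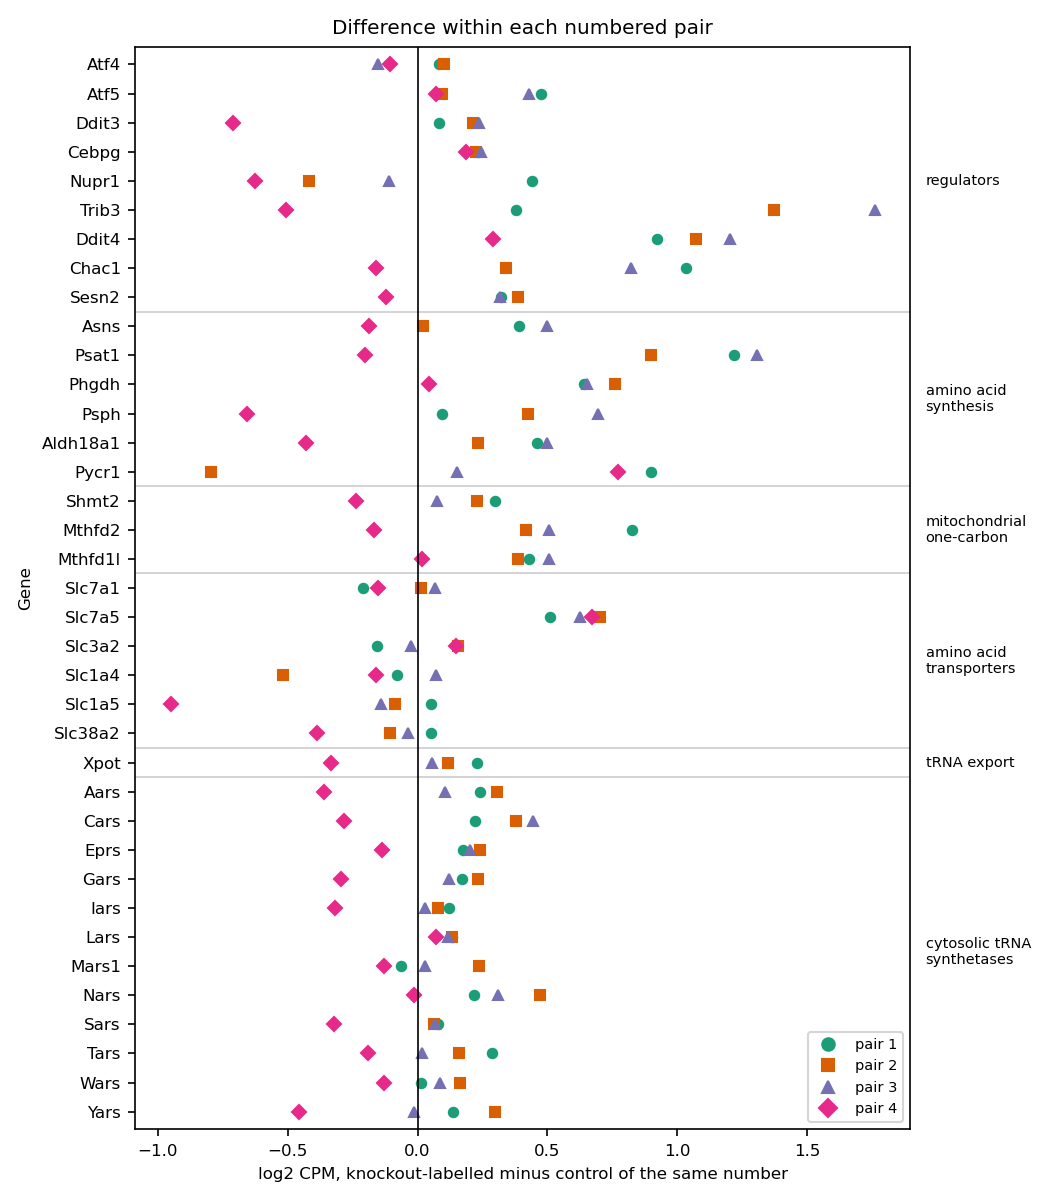
Difference in log2 CPM between the knockout-labelled and the control library of each number, for 37 genes ordered by role, with 1 symbol per pair. Pair 4 lies left of 0 for 28 genes, and the 4 symbols of Slc7a5 lie between 0.51 and 0.70.

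With the number as a block, 1 of the 37 genes rose and 0 fell, where 1.31% of all genes tested were called higher and 1.18% lower. That gene was Slc7a5, described with the transporters. With numbers 1 to 3 alone, 9 of 37 rose and 0 fell, where 7.78% of 12919 genes tested were called higher and 6.29% lower. With numbers 1 to 3 and the block, 16 rose and 0 fell, where 12.3% of all genes were called higher and 11.9% lower. The exact permutation test cannot go below p = 0.1 with 3 libraries against 3, so calls in numbers 1 to 3 rest on edgeR. Without knockout-labelled 1, which holds the late osteoblast transcripts, 8 of the 37 rose in numbers 1 to 3 and 0 fell. In that fit 569 of 13069 genes tested were called higher and 458 lower. Cebpg, Mthfd2 and Nars no longer passed (adjusted p = 0.14, 0.0818 and 0.0631), while Slc7a5 and Trib3 did. The cell-cycle genes given below were higher in the same libraries, and their part in these counts was not tested.

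**Figure D3:**
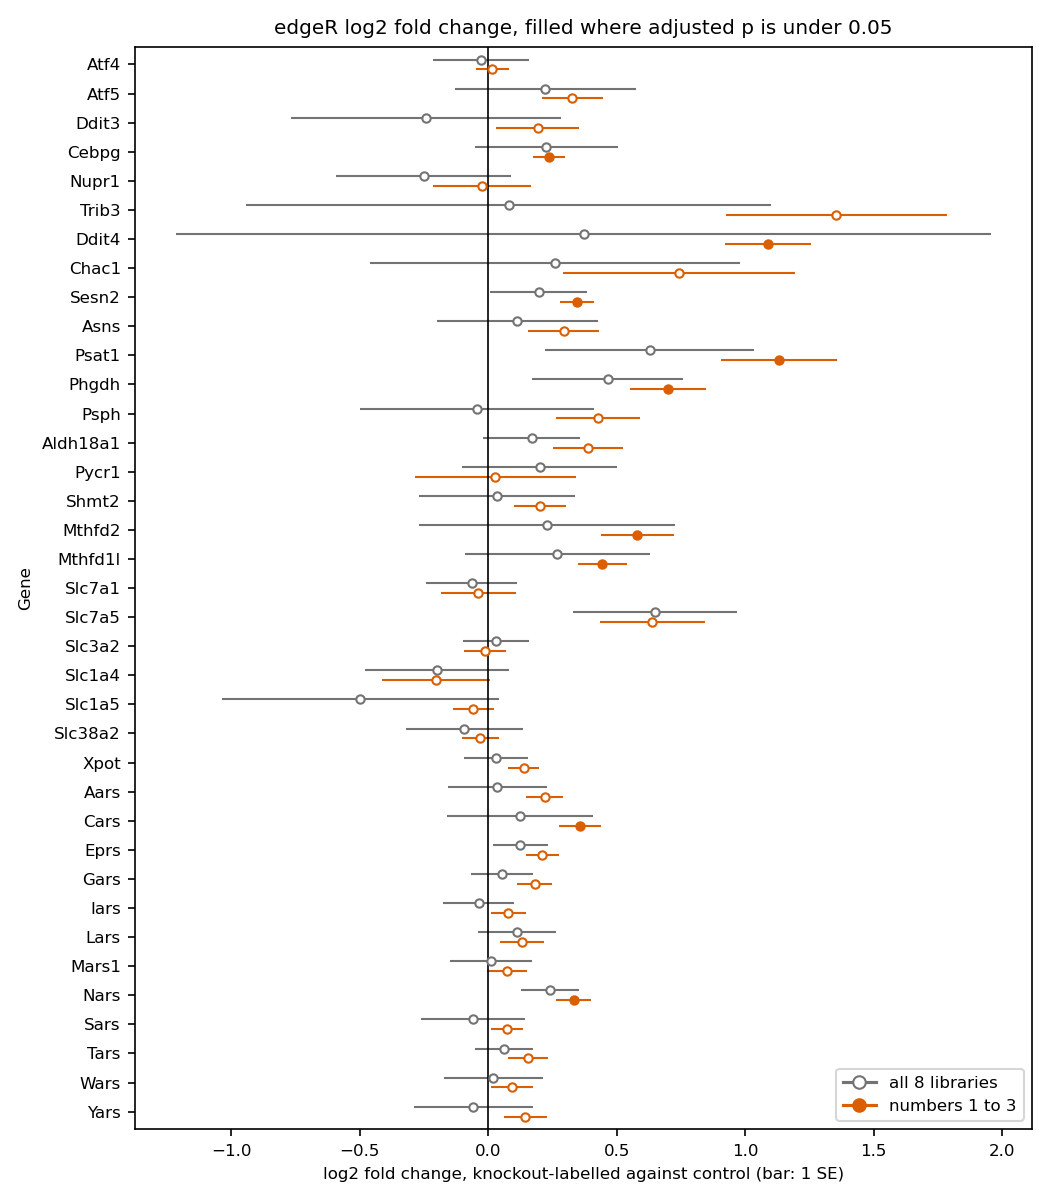
edgeR log2 fold change of each gene with 1 SE to each side, from all 8 libraries in grey and from numbers 1 to 3 in orange, filled where the adjusted p is under 0.05. No grey symbol is filled, and 9 orange symbols are, all right of 0.

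Of the 9 regulators, those that transmit or restrain the response, 3 rose in numbers 1 to 3 (Ddit4, Sesn2 and Cebpg), and 8 of 9 had a positive value there, with a median of 0.33. Over all genes tested 7.78% were called higher there. A positive value was found for 6287 of the 12800 genes tested both there and in all 8 libraries. Atf4 was not among the regulators that rose. It stood at 93.6, 93.0, 99.9 and 143 CPM in controls 1 to 4 and at 99.1, 99.9, 89.9 and 133 CPM in the knockout-labelled libraries. The groups overlapped almost fully, and the highest value of each was its number 4. The log2 fold change was −0.03 (SE 0.19) in all libraries and 0.02 (SE 0.06, adjusted p = 0.902) in numbers 1 to 3.

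Ddit4, an inhibitor of the growth kinase mTORC1, was chosen for its values after they were seen. It stood at 4.66, 3.71, 4.43 and 153 CPM in the control libraries and at 8.93, 7.93, 10.3 and 187 CPM in the knockout-labelled libraries. Number 4 was thus far above every other library in both groups, and within each number the knockout-labelled library was the higher. In numbers 1 to 3 the means were 4.26 ± 0.494 and 9.07 ± 1.21 CPM (SD, n = 3), with a log2 fold change of 1.09, an SE of 0.17 and an adjusted p of 0.00356. With all 8 libraries the block gave 0.80 (SE 0.17, adjusted p = 0.0765), which did not pass with edgeR.

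Sesn2, a leucine sensor that also restrains mTORC1, stood at 35.5, 34.3, 36.8 and 58.0 CPM in the control libraries and at 44.4, 44.9, 45.8 and 53.4 CPM in the knockout-labelled libraries. The groups were apart in numbers 1 to 3 and crossed in number 4. Its log2 fold change in numbers 1 to 3 was 0.35 (SE 0.06, adjusted p = 0.00881). Cebpg, a C/EBP protein that dimerises with ATF4, went the other way in number 4. It stood at 85.1, 79.9, 86.3 and 45.5 CPM in the control libraries and 100, 93.4, 102 and 51.7 CPM in the knockout-labelled libraries, so number 4 was the lowest of each group while each pair differed by 0.19 to 0.25. In numbers 1 to 3 it rose by 0.24 (SE 0.06, adjusted p = 0.0345).

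Ddit3, which encodes the stress factor CHOP, did not pass in any of these comparisons. It stood at 6.56, 6.91, 8.04 and 26.8 CPM in the control libraries and at 6.95, 8.04, 9.50 and 16.3 CPM in the knockout-labelled libraries. Number 4 was the highest of each group, and control 4 the highest of all. Without control 4 its log2 fold change was 0.50 and without knockout-labelled 4 it was −0.56, against −0.24 with all. Nupr1, a small chromatin protein induced by stress, stood at 23.4, 32.0, 22.8 and 58.0 CPM in the control libraries and 31.8, 23.9, 21.1 and 37.5 CPM in the knockout-labelled libraries. Its highest value was also in control 4, and its log2 fold change in numbers 1 to 3 was −0.02 (SE 0.19). Of the others, Atf5, a factor related to ATF4, and Trib3 passed in numbers 1 to 3 only with the block (adjusted p = 0.0292 and 0.0448), and Chac1 did not pass.

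In amino acid synthesis, 2 of 6 enzymes rose in numbers 1 to 3, Psat1 and Phgdh, and 6 of 6 had a positive value, with a median of 0.41. Over all genes tested 7.78% were called higher there. Phgdh and Psat1 carry out the first and second steps from glycolysis to serine. Psat1 stood at 10.2, 17.9, 13.4 and 39.4 CPM in the control libraries and at 23.8, 33.4, 33.3 and 34.2 CPM in the knockout-labelled libraries. Control 4 was the highest library of all, and without number 4 the groups did not overlap. The means in numbers 1 to 3 were 13.8 ± 3.87 and 30.2 ± 5.5 CPM (SD, n = 3), a log2 fold change of 1.13 (SE 0.23, adjusted p = 0.0195, and 4.44e-05 with the block).

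Phgdh stood at 11.9, 15.1, 15.3 and 28.9 CPM in the control libraries and at 18.5, 25.7, 24.2 and 29.9 CPM in the knockout-labelled libraries. Pairs 1 to 3 differed by 0.64 to 0.76 on the log2 scale and pair 4 by 0.04. Its log2 fold change was 0.70 in numbers 1 to 3 (SE 0.15, adjusted p = 0.0153) and 0.47 in all 8 libraries (SE 0.29, exact two-sided permutation p = 0.114, where the smallest possible is 0.0286). Psph, the third enzyme of the same route, had a positive value in numbers 1 to 3 that did not pass (0.43, SE 0.16, adjusted p = 0.124), with 5.42 to 8.84 CPM there and 18.8 CPM in control 4.

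Asns, which makes asparagine and whose promoter stretch opens the list above, did not pass. It stood at 15.8, 18.7, 12.9 and 33.4 CPM in the control libraries and at 20.7, 19, 18.3 and 29.4 CPM in the knockout-labelled libraries. The groups overlapped with and without number 4, and the log2 fold change in numbers 1 to 3 was 0.29 (SE 0.14, adjusted p = 0.204). Aldh18a1, the first enzyme from glutamate to proline, stood at 26.2, 36.7, 27.3 and 43.6 CPM in the control libraries and 36.2, 43.2, 38.7 and 32.3 CPM in the knockout-labelled libraries. It passed in numbers 1 to 3 with the block (0.40, SE 0.08, adjusted p = 0.00498) and not without it (adjusted p = 0.0989). Pycr1, which completes proline synthesis, ranged from 5.24 to 11.4 CPM with no common direction among the pairs.

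**Figure D4:**
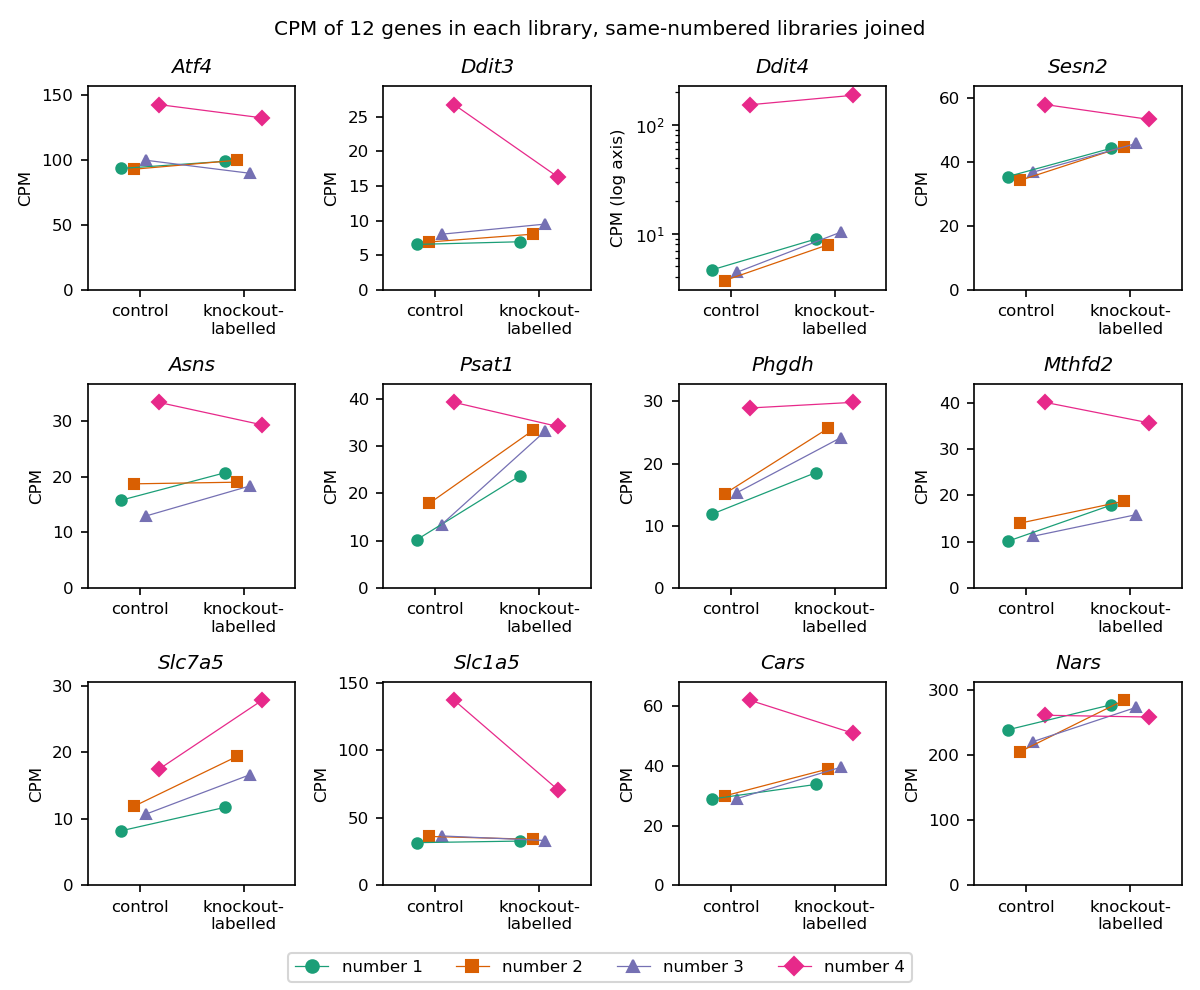
CPM of 12 of the genes in each library, with the control on the left, the knockout-labelled library on the right and the same number joined by a line (Ddit4 on a log axis). Lines 1 to 3 climb for Ddit4, Sesn2, Psat1, Phgdh, Mthfd2, Slc7a5, Cars and Nars, and more weakly for Ddit3. For Asns lines 1 and 3 climb and line 2 is nearly flat. Line 4 climbs for Ddit4, Phgdh and Slc7a5.

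The mitochondrial folate enzymes take carbon units from serine and pass them on for nucleotide synthesis. Of 3 such genes 2 rose in numbers 1 to 3, Mthfd2 and Mthfd1l, where 7.78% of all genes tested were called higher. The median was 0.44. Mthfd2 stood at 10.1, 14, 11.1 and 40.2 CPM in the control libraries and at 17.9, 18.7, 15.8 and 35.8 CPM in the knockout-labelled libraries. Number 4 was the highest of each group, and the groups did not overlap in numbers 1 to 3 (0.58, SE 0.14, adjusted p = 0.0274). Mthfd1l, the last step of the mitochondrial route to formate, stood at 17.2, 19.7, 16.9 and 42.8 CPM in the control libraries and at 23.2, 25.8, 24.1 and 43.3 CPM in the knockout-labelled libraries. It showed the same layout, with 0.44 in numbers 1 to 3 (SE 0.10, adjusted p = 0.016) and 0.02 in pair 4. Shmt2, which splits serine in mitochondria, stood at 29.7, 34.1, 38.7 and 71.5 CPM in the control libraries and 36.5, 40.0, 40.8 and 60.7 CPM in the knockout-labelled libraries, and it did not pass (0.20, SE 0.10, adjusted p = 0.233).

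Of the 6 transporters, 1 had a value above 0 in numbers 1 to 3, and the median was −0.03. That gene was Slc7a5, the light chain of the exchanger LAT1, which brings in leucine and other large neutral amino acids. It stood at 8.20, 11.9, 10.7 and 17.4 CPM in the control libraries and at 11.7, 19.4, 16.6 and 27.8 CPM in the knockout-labelled libraries. The groups overlapped because the level itself differed between numbers, while each knockout-labelled library was above its own control. The log2 fold change was 0.65 in all libraries (SE 0.32, exact two-sided permutation p = 0.143) and 0.64 with the block (SE 0.09, adjusted p = 0.0385). In numbers 1 to 3 it was 0.64 (SE 0.21, adjusted p = 0.0785, and 0.0021 with the block). With the block and without number 1, 2 or 3, the adjusted p was 0.184, 0.253 and 0.337, with values of 0.62 to 0.67.

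Slc3a2, the heavy chain that LAT1 needs, did not pass. It ranged from 214 to 269 CPM among the controls and from 238 to 298 CPM in the knockout-labelled libraries, with a log2 fold change of 0.03 in all 8 (SE 0.13) and −0.01 in numbers 1 to 3 (SE 0.08). The glutamine and neutral amino acid carrier Slc1a5 stood at 31.6, 36.3, 36.6 and 137 CPM in the control libraries and at 32.8, 34.1, 33.2 and 70.9 CPM in the knockout-labelled libraries. Only number 4 was raised in either group, so its log2 fold change of −0.50 with all libraries (SE 0.54) became −0.06 in numbers 1 to 3 (SE 0.08). Slc1a4, a carrier of alanine and serine, stood at 18.4, 31.4, 21.0 and 14.3 CPM in the control libraries and 17.4, 21.9, 22 and 12.7 CPM in the knockout-labelled libraries, and did not pass (−0.20, SE 0.21 in numbers 1 to 3). The arginine carrier Slc7a1 and the glutamine carrier Slc38a2 had values of −0.04 (SE 0.15) and −0.03 (SE 0.07) there.

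Xpot, which exports tRNA from the nucleus, stood at 107, 108, 109 and 111 CPM in the control libraries and at 125, 117, 113 and 88.0 CPM in the knockout-labelled libraries. The controls were close together, while the knockout-labelled libraries fell on either side of them, and the value in numbers 1 to 3 did not pass (0.14, SE 0.06, adjusted p = 0.165).

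Of the 12 cytosolic synthetases, 12 had a positive value in numbers 1 to 3, between 0.07 and 0.36, with a median of 0.15, and 2 rose, Nars and Cars. With 7.78% of all genes tested called higher there, 2 of 12 lies near that background. A positive value was found for 6287 of 12800 genes. In pair 4, 11 of 12 were lower, with a median of −0.24. Nars stood at 239, 206, 221 and 261 CPM in the control libraries and at 278, 285, 274 and 259 CPM in the knockout-labelled libraries. Its groups overlapped only through number 4, and its log2 fold change was 0.33 in numbers 1 to 3 (SE 0.07, adjusted p = 0.0143) and 0.24 in all 8 (SE 0.11, exact two-sided permutation p = 0.0571). Cars, for cysteine, was named after its values were seen. It stood at 28.9, 30.0, 29.1 and 62 CPM in the control libraries and 33.8, 39.0, 39.6 and 50.9 CPM in the knockout-labelled libraries, with 0.36 in numbers 1 to 3 (SE 0.08, adjusted p = 0.0224).

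Eprs, which charges tRNA with glutamate and proline, stood at 132, 131, 122.6 and 136 CPM in the control libraries and 149, 156, 141 and 124 CPM in the knockout-labelled libraries. It passed in numbers 1 to 3 only with the block (adjusted p = 0.0129, against 0.0606 without), as did Aars for alanine (0.0157 against 0.0753) and Gars for glycine (0.0273 against 0.113). Lars, for leucine, stood at 54.3, 60.0, 51.7 and 73.3 CPM in the control libraries and 59.6, 65.9, 56.0 and 76.9 CPM in the knockout-labelled libraries, higher in 4 of 4 pairs by 0.07 to 0.13, and did not pass. Tars, for threonine, stood at 52.0, 60.7, 61.7 and 69.4 CPM in the control libraries and 63.5, 67.8, 62.3 and 60.7 CPM in the knockout-labelled libraries, and did not pass either. Iars, Mars1, Sars, Wars and Yars had values of 0.07 to 0.14 in numbers 1 to 3 with adjusted p of 0.29 to 0.578.

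The libraries numbered 4 were also high in level for most of these genes. In 24 of the 37, both number 4 libraries were above the other 6, where 34.2% of all genes tested were, among them 8 of 9 regulators, 3 of 3 folate enzymes and 7 of 12 synthetases. Both were below the other 6 in 4 genes, Cebpg, Slc7a1, Slc1a4 and Slc38a2, where 33.8% of all genes tested were. Number 4 is also where the osteoclast markers were high, and the part of that in these levels was not tested.

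By promoter match, 0 of the 11 genes with the core rose in numbers 1 to 3, against 7 of 20 whose window did not hold it and 2 of 6 with no window, Cars and Nars. With 7.78% of all genes called higher there, a count of 0 of 11 lies near that background, and no contrast between these classes was tested. The median log2 fold changes were 0.16, 0.22 and 0.23. With the block the counts were 3 (Trib3, Aars and Gars), 10 and 3, where 12.3% of all genes tested were called higher. The 7 without a match were Ddit4, Sesn2, Cebpg, Psat1, Phgdh, Mthfd2 and Mthfd1l, and the absence says only that these letters are not in a window of 300 bases.

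Genes near the 37 in the same pathways were taken from lists. Of 32 other eIF2alpha and ATF4 pathway genes tested (of 36), 3 rose and 4 fell in numbers 1 to 3, with a median of 0.06. The count that rose lies near the 7.78% of all genes called higher, and 6.29% were called lower. Slc7a11, the cystine importer and a known ATF4 target, fell by 1.95 (SE 0.19, adjusted p = 0.00183). It stood at 174, 112, 135 and 43.8 CPM in the control libraries and at 41.5, 31.5, 36.1 and 42.7 CPM in the knockout-labelled libraries, so only controls 1 to 3 were high. The mitochondrial enzyme Pck2 rose by 0.84 (SE 0.07, adjusted p = 0.000219) and the stress hormone Gdf15 by 1.25 (SE 0.19, adjusted p = 0.00555), while number 4 had 53.2 CPM in the knockout-labelled library against 51.5 CPM in the control for Pck2 and 11.9 against 14.8 CPM for Gdf15. The other calls, named after their values were seen, were Bcat1, which rose, and Cebpb, Jdp2 and Eif4ebp1, which fell. Eif4ebp1, the translation repressor 4E-BP1, also fell with the block in all 8 libraries (−0.28, SE 0.05, adjusted p = 0.046), as the only gene of the list to pass there. Fgf21, Stc2, Cth and Cbs were too low to test and had no more than 59 counts in any library.

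Among 14 other serine, glycine and folate genes tested, 4 rose in numbers 1 to 3 and 0 fell, with a median of 0.22. Those that rose included Tyms, thymidylate synthase (0.84, SE 0.22, adjusted p = 0.0394), Mtr, methionine synthase (0.34, SE 0.09, adjusted p = 0.0357), and Gcat (0.78, SE 0.18, adjusted p = 0.0236). Of 17 genes of amino acid sensing by mTORC1, 4 rose and 1 fell there, with a median of 0.17. Beside both lists, 7.78% of all genes tested were called higher in numbers 1 to 3 and 6.29% lower. Sesn1, a relative of Sesn2, stood at 171, 147, 153 and 132 CPM in the control libraries and 241, 228, 232 and 157 CPM in the knockout-labelled libraries, so the groups overlapped only through number 4. It rose by 0.58 in numbers 1 to 3 (SE 0.07, adjusted p = 0.00128) and by 0.49 in all 8 with the block (SE 0.08, adjusted p = 0.0412). Sesn3 rose by 0.97 (SE 0.16, adjusted p = 0.00522), and Rheb, the activator of mTORC1, fell by 0.34 (SE 0.06, adjusted p = 0.00776). The other calls were Rragc and Fnip1, which rose.

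The other 11 genes of cytosolic synthetases and their scaffolds held 1 call in numbers 1 to 3, Hars for histidine (0.23, SE 0.06, adjusted p = 0.0461), with a median of 0.08, and in pair 4 they were lower in 11 of 11, with a median of −0.29. Their scaffold genes Eef1e1 and Aimp1 had values of −0.22 (SE 0.11) and −0.22 (SE 0.09), and Dars, for aspartate, −0.11 (SE 0.05), none of which passed. The 17 mitochondrial synthetases held 0 calls with a median of −0.03, and Iars2, Aars2 and Rars2 had adjusted p of 0.621, 0.663 and 0.17. Over all genes tested 7.78% were called higher and 6.29% lower, and the counts of both lists lie near that background.

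Cell-cycle genes were higher in the knockout-labelled libraries of numbers 1 to 3. There, 11 of 14 rose, where 7.78% of all genes tested were called higher. Of these cell-cycle genes 14 of 14 had a positive value, with a median of 1.34. Their summed level was 430 to 709 CPM in controls 1 to 3 and 1294 to 1470 CPM in knockout-labelled 1 to 3, and 678 and 908 CPM in control 4 and knockout-labelled 4. In pair 4 the median difference of these genes was 0.51. The macrophage markers had a median of 0.02 in numbers 1 to 3, and single markers went both ways. Itgam, an integrin of myeloid cells, fell by 0.67 (adjusted p = 0.0017), while the macrophage receptors Mrc1 and Mertk rose by 0.44 and 0.41 (adjusted p = 0.00931 and 0.0124), and with the block 6 of 15 rose and 4 fell. The osteoblast markers had a median of 0.19 over the 12 of 14 tested in numbers 1 to 3, with 0 calls without the block. With the block 2 of them rose, Spp1 and Dmp1 (adjusted p = 0.000213 and 0.0494), and 0 fell. Dmp1 stood at 13.7 CPM in knockout-labelled 1 and at no more than 0.778 CPM in any other library. Over all genes tested 12.3% were called higher with the block and 11.9% lower. For both lists the summed levels overlapped between groups. The part of dividing cells, macrophages or osteoblasts in the members' values was not tested.

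**Figure D5:**
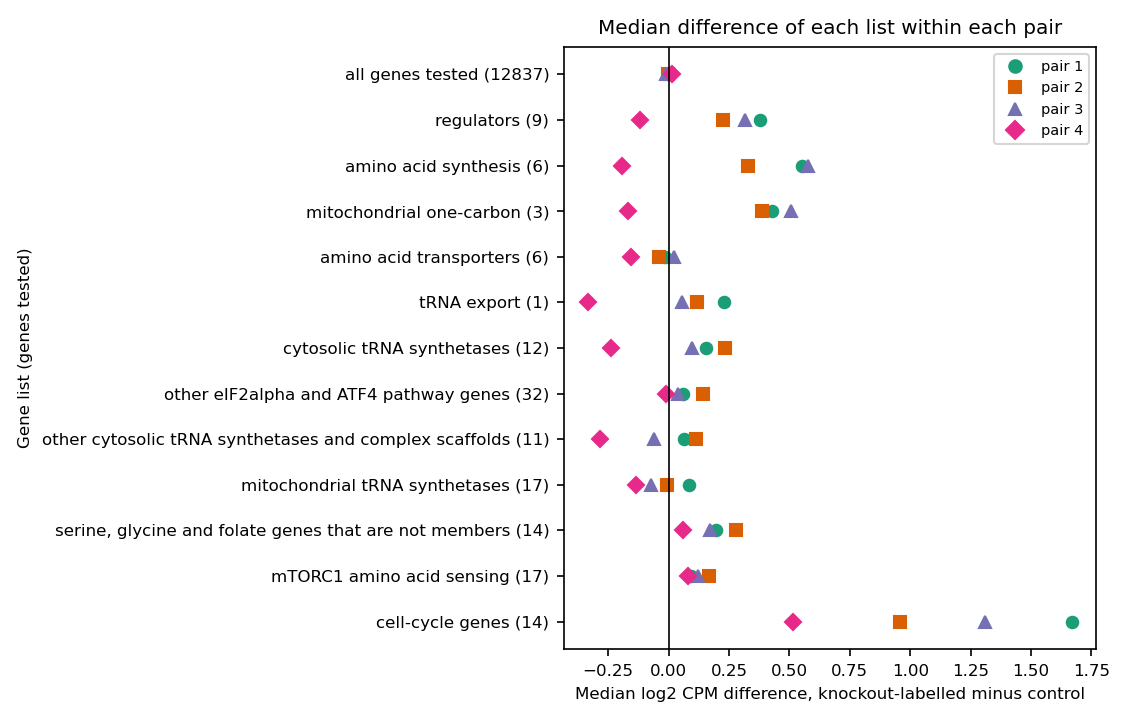
Median difference in log2 CPM between the knockout-labelled and the control library of each number for the roles, the related lists, the cell-cycle genes and all genes tested. Pairs 1 to 3 lie right of 0 for every role except the transporters, and for the cell-cycle genes. They also do so for the other ATF4 pathway genes, the other serine, glycine and folate genes and mTORC1 sensing. In pair 4 only the cell-cycle genes stay far to the right.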

How the data were processed

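The table deposited by the authors gives raw read counts, 1 row per gene symbol. Its making involved STAR 2.7.11b, featureCounts 2 and the build GRCm38 (also named mm10) per the submitters' processing notes. The annotation and strand setting are not given in the sources used here, so reads shared with overlapping genes cannot be told apart: 9 of the 37 genes share exonic bases with another gene, over 5% of them in Psph (Cct6a) and Aars (mostly Exosc6). Within groups libraries differed beyond sampling noise (chi-square per degree of freedom of 8.56 or more).

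Counts were fitted with edgeR 4.0.16 in R 4.3.3 (filterByExpr, TMM, robust quasi-likelihood test of genotype, Benjamini-Hochberg over all genes tested, threshold 0.05). Log2 CPM used a prior count of 2, and single genes had exact permutation tests. Same-numbered libraries correlated with r of 0.460 to 0.829 after removal of group means, and with 0.161 to 0.376 among numbers 1 to 3, above the minimum of 0.1, so the number was used as a block beside the unpaired test. Among numbers 1 to 3 unlike numbers correlated with −0.255 to −0.0234, but with all 8 libraries they reached 0.572, so the pairing is an assumption. DESeq2 1.42.0 and limma 3.58.1 were alternatives. The code was tested on simulated data.

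The 37 genes, their roles and the 10 lists were chosen with earlier results of these data known, as was the use of numbers 1 to 3. Values in each library are given for Atf4, Ddit3, Asns and Slc7a5 and for the members of each role with the smallest unadjusted p in the unpaired fit (3, or 4 synthetases), and from each related list up to 3 genes by the same measure. Genes outside this rule are named where a count of calls is 5 or fewer. Lengths are of merged exons in GENCODE M21, where Mars1 is named Mars. The values of 1 related gene and 2 promoter stretches are not reported here.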

Additional observations from a re-analysis of the deposited data

Results flagged for a closer look

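In 24 of the 74 groups of 4 libraries checked, 37 genes in each genotype, the gap between 1 library and its nearest neighbour took a larger share of the group's whole CPM range than Dixon's 95% critical value for 4 samples, where chance gives about 1 group in 20. Of these, 14 were control 4, 8 were knockout-labelled 4 and 2 were other libraries. The same check was not run over all genes. Both number 4 libraries were above the other 6 in 34.2% of all genes tested and below them in 33.8%. Flags in number 4 therefore need not be particular to these genes.

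In 5 genes both control 4 and knockout-labelled 4 passed the critical value as the highest library of their group. The ratios were 0.994 and 0.987 for Ddit4, 0.953 and 0.966 for Slc1a5, and 0.894 and 0.873 for Mthfd1l. They were 0.869 and 0.854 for Mthfd2, and 0.894 and 0.835 for Sesn2. For other genes only control 4 passed the critical value. It was the highest of its group for Cars (0.969), Psph (0.958), Trib3 (0.951), Ddit3 (0.927), Mars1 (0.926), Yars (0.878), Sars (0.87) and Atf4 (0.862). It was the lowest for Cebpg (0.844). Only knockout-labelled 4 passed the critical value as the highest for Slc3a2 (0.876) and Atf5 (0.86), and as the lowest for Slc38a2 (0.849). Outside number 4, knockout-labelled 1 was lowest for Psat1 (0.909) and control 2 was highest for Pycr1 (0.83).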

How the results depend on the processing

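Over all 8 libraries, no gene was called with limma-voom, DESeq2 size factors or upper-quartile factors in edgeR, or with no filter on low counts, and no member either. DESeq2 called 127 genes higher and 49 lower, with 0 members. limma-voom with quality weights called 1101 higher and 958 lower, with 11 members higher, and gave Ddit3 a value of 0.172. The replicate block called 168 higher and 151 lower, with 1 member, and the replicate block with DESeq2, added after the data were seen, 541 and 404, with 4 members (Ddit4, Phgdh, Psat1 and Slc7a5). The cause of these differences was not tested.

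With 1 library or 1 number left out, with and without the block, genes called higher ranged from 0 to 1593, genes called lower from 0 to 1539 and members called higher from 0 to 16. In numbers 1 to 3 without knockout-labelled 1, added after the data were seen, 569 genes were called higher and 458 lower, with 8 members and a Ddit3 value of 0.291. With the block, which then rests on pairs 2 and 3, these were 1510 and 1562, with 15 members and 0.236. Without control 4 alone 25 genes were called higher and 13 lower, without knockout-labelled 4 alone 17 and 7, each with 0 members. With the block and without number 1, 2 or 3 no gene was called. The log2 medians ranged from −0.0519 to 0.255 for the members, −0.191 to 0.501 for regulators, −0.189 to 0.0212 for transporters and −0.103 to 0.691 for folate enzymes. Values of single genes that changed sign ranged from −0.155 to 0.138 (Atf4), −0.559 to 0.501 (Ddit3), −0.0596 to 0.461 (Asns), −0.45 to 0.128 (Nupr1), −0.103 to 0.905 (Mthfd2), −0.151 to 0.378 (Shmt2), −0.853 to 0.289 (Slc1a5), −0.352 to 0.0564 (Slc1a4), −0.0524 to 0.138 (Xpot) and −0.00737 to 0.157 (Tars). Depth limits Trib3 and Chac1, with as few as 7 and 8 counts.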
